A study of Mus musculus with 3 samples.

Results

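The genes described here are the nuclear genes whose products build the 5 complexes of oxidative phosphorylation, read on the chromatin of macrophages. They were chosen by symbol: every gene with a protein-coding transcript whose name follows the naming of the complex I (Nduf), II (Sdh), III (Uqcr and Cyc1), IV (Cox4 to Cox8) or V (Atp5) subunits. The rule found 86 of the 55536 genes in the tables, of which 35 belong to complex I, 4 to complex II, 9 to complex III, 20 to complex IV and 18 to complex V. Ndufa4 and its relative Ndufa4l2 were counted with complex IV, where the Ndufa4 protein is found. The 86 identifiers carry 85 symbols, because Atp5o has a second identifier, which was listed at 0 in every library. The names also take in Atp5s (coupling factor B) and Cox7a2l (a factor of supercomplex assembly), which are not structural subunits.

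The cells were macrophages grown from bone marrow of C57BL/6J mice and stimulated with lipid A, the part of lipopolysaccharide that engages Toll-like receptor 4, at 100 ng/ml for 50 min. RNA of the chromatin fraction was depleted of ribosomal RNA and sequenced in 3 libraries that form 1 group, made from 1000 ng (replicate 1), 250 ng (replicate 2) and 500 ng (replicate 3) of RNA. The labels number them as biological replicates but give all of them 1 donor code, so the spread between them may be technical. Sex and age were not collected, and untreated cells and other fractions were not analysed here, so the values are levels at 1 time and not responses to lipid A. No test between conditions was possible, and all values below are descriptions.

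In oxidative phosphorylation, complexes I to IV pass electrons from NADH and succinate to oxygen and complexes I, III and IV pump protons across the inner mitochondrial membrane, and complex V (ATP synthase) uses the returning protons to make ATP. Most subunits are encoded in the nucleus and imported, while a small set is encoded by mitochondrial DNA. Macrophages activated through Toll-like receptor 4 are known to shift over hours from respiration towards glycolysis, and succinate oxidation by complex II takes part in their inflammatory signalling. RNA bound to chromatin is rich in transcripts still being made or spliced.

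Gene totals were 10496703, 17687379 and 14806118 expected counts (estimated counts that need not be whole) in replicates 1, 2 and 3. Levels are given in TPM, a measure per transcript length scaled to the same sum in every library, and protein-coding genes took 22.4%, 16.4% and 20.4% of that sum. A second quantification, derived from the read files directly where these gene tables come from transcriptome alignments, was deposited for the same libraries. A gene with 10 or more expected counts in every library was called detected. The macrophage markers were all detected (10 of 10, with a summed level of 821.9 to 981.8 TPM). Of the markers of other cell types, 1 of 4 for T cells (Cd4, 1.52 TPM) and 1 of 3 for endothelium (Kdr, 1.57 TPM) were detected, and none of 4 for B cells, 5 for neutrophils, 4 for fibroblasts, 3 for erythroid cells (all listed at 0), 4 for striated muscle and 2 for brown fat. In the second quantification 3 of 4 for T cells, 3 of 4 for fibroblasts, 3 of 4 for striated muscle, 2 of 3 for endothelium, 1 of 4 for B cells and 1 of 5 for neutrophils were detected. The fibroblast markers Col1a1 (0, 28 and 21 counts), Col1a2 (1, 25 and 14) and Col3a1 (0, 19 and 12) were near absent from replicate 1, and their part in the results was not tested.

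The median member stood at 1.58 TPM in replicate 1, 1.48 in replicate 2 and 1.81 in replicate 3 (1.62 ± 0.170, mean ± SD of the library medians, n = 3). This is above the median of all 22028 protein-coding genes (0.210 ± 0.0361 TPM), many of which are silent. The 48 detected members had a median of 3.41 ± 0.748 TPM, beside 4.82 ± 0.614 for the 9665 detected protein-coding genes, and in the second quantification the same sets had 8.87 ± 2.30 and 9.13 ± 1.63. Detection was met by 48 of the 86 members (55.8%), beside 43.9% of all protein-coding genes. Longer transcripts meet this count limit at a lower TPM. The main coding transcript had a median of 709 bases for the members and 2222 for all protein-coding genes. A mean above 10 TPM was reached by 9 members (10.5%), beside 14.9% of protein-coding genes, and one above 1 TPM by 57 (66.3%), beside 38.4%. In bulk libraries, fewer cells expressing a gene and less RNA in each cell cannot be told apart.

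Genes that are likewise needed in every cell stood at other levels. The 84 cytoplasmic ribosomal protein genes had a median of 10.8 ± 0.243 TPM, and the ratio of the median member to the median ribosomal protein gene was 0.142, 0.137 and 0.171 in replicates 1, 2 and 3 (0.1498 ± 0.0183). Over detected genes alone the ratio was 0.286, and in the second quantification 0.248. The 14 genes of the tricarboxylic acid cycle, which feeds electrons to the chain, had a median of 7.22 ± 2.30 TPM and were all detected. Dlst, a subunit of the 2-oxoglutarate dehydrogenase complex, led them at 83.6 ± 14.1 TPM, followed by Idh3b, a subunit of isocitrate dehydrogenase, at 22.1 ± 4.06. The 11 genes of electron carriers and coenzyme Q synthesis had a median of 3.41 ± 0.284 TPM, led by Pdss1 (23.5 ± 18.5) and Coq10b (17.0 ± 5.35).

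**Figure D1:**
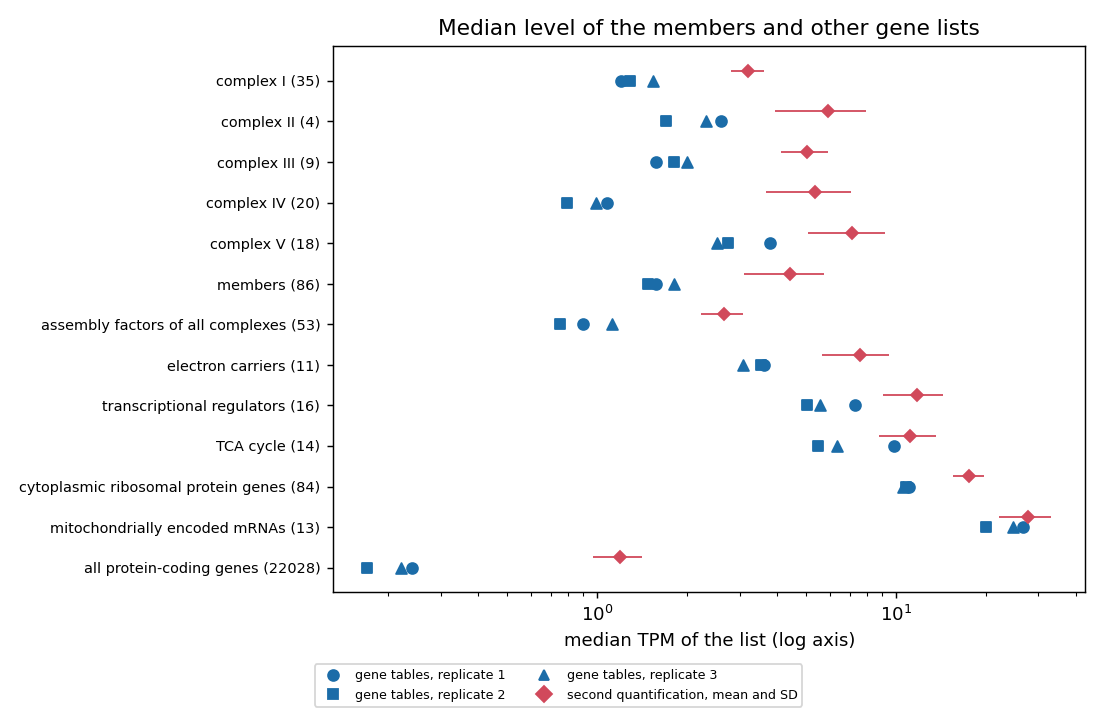
Median TPM (log axis) of the 5 complexes, of all 86 members and of other gene lists, with the number of genes in brackets. Blue symbols are the 3 libraries in the gene tables, and red diamonds with bars are the mean and SD of the library medians in the second quantification. The members sit between 1.48 and 1.81 TPM, below the ribosomal protein genes near 10.8 TPM, and every list of nuclear genes lies higher in the second quantification.

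Among the complexes, complex V had the highest median in both quantifications, while the lowest was complex IV in the gene tables and complex I in the second quantification (I 3.21, II 5.94, III 5.04, IV 5.38 and V 7.15 TPM there). In the gene tables the library medians were 2.53 to 3.81 TPM for complex V (3.03 ± 0.683), 1.70 to 2.61 for complex II (2.21 ± 0.465), 1.57 to 2.00 for complex III (1.79 ± 0.215), 1.20 to 1.54 for complex I (1.34 ± 0.176) and 0.795 to 1.08 for complex IV (0.957 ± 0.146). Neighbours in this order overlapped between complexes V and II and between II and III, and not between III and I or between I and IV. Of the 20 complex IV genes, 8 are isoforms known from muscle, testis, lung or hypoxic cells. Genes outside these 8, such as Cox7a2, Cox8a and Cox7b, were not detected either. A mean above 1 TPM was reached by 10 of the 20 complex IV genes and by 0 of these 8. The median of the complex without these 8 was not computed, and their part in its low median was not tested. The 7 detected genes of the complex had a median of 9.66 TPM, which is raised by their selection on counts. Detection was met by 16 of 35 members of complex I, 4 of 4 of complex II, 7 of 9 of complex III, 7 of 20 of complex IV and 14 of 18 of complex V.

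**Figure D2:**
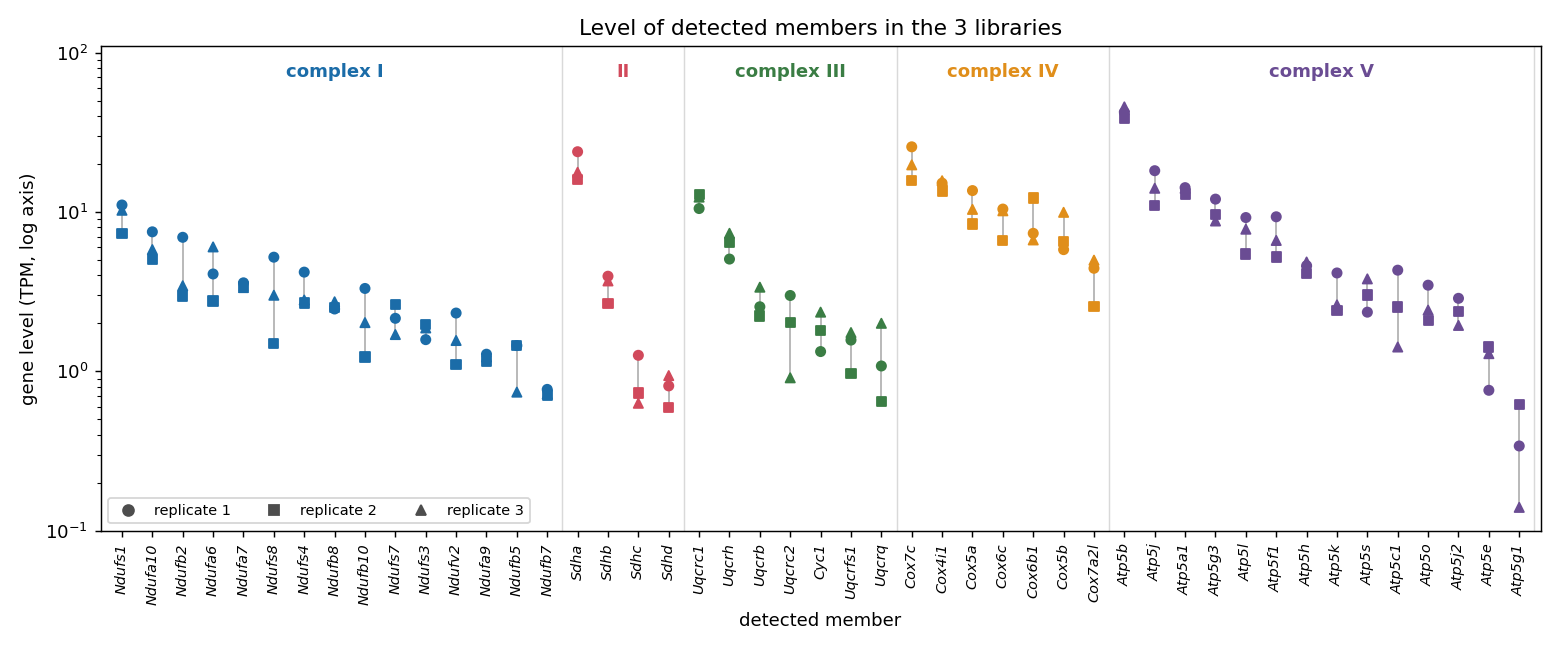
Level of 47 of the 48 detected members in the 3 libraries (TPM, log axis), ordered by complex and mean level, with a grey line from the lowest to the highest library. Atp5b stands above every other member in all 3 libraries, and the detected members of complexes I, II and V span more than 10-fold.

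Complex V makes ATP by rotary catalysis. Its catalytic subunit beta is encoded by Atp5b (ENSMUSG00000025393.12, mm10 chromosome 10, 128083273 to 128090391, plus strand), the most abundant member, at 42.1, 38.6 and 45.6 TPM in replicates 1, 2 and 3. In normalised counts the 3 libraries lay within 1.13-fold of each other, and no other member reached the lowest TPM of Atp5b. Atp5a1, which encodes the subunit alpha that alternates with beta in the catalytic head, stood at 14.2, 12.9 and 14.1 TPM, with a range of 1.34-fold in normalised counts. Atp5j, for coupling factor 6 of the stalk, was more variable at 18.1, 11.0 and 14.1 TPM, a range that takes in that of Atp5a1.

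The membrane ring of complex V is made of identical c subunits encoded by 3 genes, which differed widely. Atp5g3 stood at 12.03, 9.65 and 8.77 TPM (10.2 ± 1.69), Atp5g2 at 1.66, 1.18 and 2.10 and Atp5g1 at 0.340, 0.620 and 0.140, with no overlap between the 3 genes. Atp5g2 has 2 near-identical pseudogenes (at least 95% identity over at least 50% of its main coding transcript), which held a mean of 3.85 counts together. Atp5c1, for the central stalk subunit gamma, stood at 4.31, 2.53 and 1.42 TPM in replicates 1, 2 and 3, highest in replicate 1. Atp5d, for subunit delta of the same stalk, was the lowest gene of the complex above 0 after Atp5g1 (1.04 ± 0.470 TPM, with 4, 21 and 16 counts).

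Complex I takes electrons from NADH through 7 conserved core subunits encoded in the nucleus. These 7 genes had a median of 2.28 ± 0.387 TPM, and the 28 other complex I genes, most of which encode accessory subunits, had 1.13 ± 0.0351. Detection was met by 6 of the 7 core genes and 10 of the 28 others. The median length of the main coding transcript was 1046 bases for the core genes and 744.5 for the others. The part of length in this difference was not tested. Ndufs1, the largest iron-sulfur subunit (ENSMUSG00000025968.16, chromosome 1, 63143596 to 63176833, minus strand), led the complex at 11.1, 7.29 and 10.2 TPM.

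The other core genes described here were lower. Ndufs8, a ferredoxin-like subunit, stood at 5.20, 1.49 and 3.00 TPM, and had the widest range between libraries of the detected members (2.75-fold in normalised counts, from 54, 26 and 39 counts). Ndufs7 stood at 2.16 ± 0.470 TPM, Ndufs3 at 1.81 ± 0.203 and Ndufv2 at 1.66 ± 0.616. Ndufv1, which binds NADH and flavin, was not detected by the rule, since replicate 1 held 6 counts beside 56 and 19 in replicates 2 and 3. Its 6.50-fold range was the widest in complex I and rests on these low counts.

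Of the other complex I genes, Ndufa10 was the highest at 7.50, 5.05 and 5.80 TPM, followed by Ndufb2 at 6.93, 2.97 and 3.44. This order turned in the second quantification, where Ndufb2 (32.9 TPM) and Ndufa7 (17.5) stood above Ndufa10 (13.4). Ndufs6 (0.250 ± 0.0346 TPM) and Ndufa8 (0.187 ± 0.0651) were the lowest, with 1 to 4 counts in a library. Ndufa12, an accessory subunit, stood at 1.12 ± 0.137 TPM, but its processed pseudogene Gm15920 is 99.502% identical over the aligned bases and held 52.8, 33.0 and 53.2 expected counts beside 8.18, 11.97 and 7.84 for Ndufa12. The level of Ndufa12 is therefore uncertain, and the second quantification gave the gene 221.4, 153 and 175 counts and the pseudogene 53.6, 61.9 and 80.1.

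Complex II, succinate dehydrogenase, links the tricarboxylic acid cycle to the chain and is encoded by 4 nuclear genes alone. Sdha, its flavoprotein (ENSMUSG00000021577.14, chromosome 13, 74322254 to 74350280, minus strand), stood at 23.9, 15.9 and 17.7 TPM. The iron-sulfur subunit gene Sdhb stood at 3.95, 2.66 and 3.69 TPM. The membrane anchors Sdhc (1.26, 0.730 and 0.630 TPM) and Sdhd (0.810, 0.590 and 0.940 TPM) were lower still, and overlapped with each other. The products of the 4 genes join in equal number, while in the gene tables Sdha stood above Sdhb and Sdhb above both anchors in all 3 libraries. In the second quantification Sdha was again highest (44.8 TPM), but Sdhc (6.40) stood above Sdhb (5.48).

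In complex III, which passes electrons from ubiquinol to cytochrome c, the core protein gene Uqcrc1 (ENSMUSG00000025651.14, chromosome 9, 108936633 to 108949623, plus strand) led at 10.5, 12.9 and 12.4 TPM. Uqcrh, the hinge protein, stood at 5.06, 6.46 and 7.34 TPM, and Uqcrb at 2.54, 2.22 and 3.37. The other core protein gene, Uqcrc2, stood at 2.99, 2.03 and 0.910 TPM, below Uqcrc1 in all 3 libraries. The redox subunit genes Cyc1 (cytochrome c1, 1.83 ± 0.510 TPM) and Uqcrfs1 (the Rieske protein, 1.43 ± 0.408) overlapped in the gene tables, but stood at 7.16 and 1.60 TPM in the second quantification. There Uqcrc2 (9.95 TPM) also stood above Uqcrh (9.09). Uqcr10 (0.723 ± 0.359) and Uqcr11 (0.280 ± 0.280) were the lowest, and Uqcr11 had 0, 3 and 1 counts.

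Complex IV, cytochrome c oxidase, hands electrons to oxygen. Cox7c (ENSMUSG00000017778.14, chromosome 13, 86044816 to 86046904, minus strand) led at 25.6, 15.7 and 19.7 TPM, followed by Cox4i1, the widely expressed form of subunit 4, at 15.2, 13.5 and 15.7, Cox5a at 13.6, 8.39 and 10.4 and Cox6c at 10.4, 6.59 and 10.2. The ranges of Cox7c and Cox4i1 did not overlap, though replicate 2 of Cox7c lay only just above replicate 3 of Cox4i1. The order turned in the second quantification, with Cox4i1 at 50.7 TPM and Cox7c at 40.6. Cox5a overlapped with both Cox4i1 and Cox6c.

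The 8 isoforms known from other tissues or states were at or near 0. None of the 8 was detected, and 3 of them (Cox6a2, Cox7b2 and Cox8c) had no count in any library, which allows up to 3 counts in a library. Cox7a1, the heart and muscle form of subunit 7a, had 0, 1 and 3 counts, and Cox4i2, the lung form of subunit 4, had 2, 1 and 2. Cox8b, Cox6b2 and Ndufa4l2 had at most 1 count in a library. Their widely expressed partners Cox7a2 (3.08 ± 0.536 TPM), Cox4i1 and Cox6b1 (8.75 ± 3.04) were higher in every library. In the second quantification 2 of the 8 reached 10 counts in each library, Cox7a1 at 7.52 ± 1.26 TPM and Cox4i2 at 3.82 ± 2.12. The 4 striated muscle markers stood at 0 to 0.0233 TPM in the gene tables, but 3 of the 4 were detected in the second quantification, with a median of 0.829 TPM and Actn2 the highest at 32.7.

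Genes that assemble the complexes had a lower median than the members, and genes that control their transcription a higher one. Of 54 assembly factors listed, 53 matched a gene, with a median of 0.923 ± 0.186 TPM, and 28 of these 53 were detected. The highest in their groups in the gene tables were Cox17, a copper chaperone for complex IV (15.6 ± 6.12 TPM), Ttc19 for complex III (10.7 ± 2.20), Sdhaf2 for complex II (5.13 ± 1.43), Atpaf1 for complex V (4.95 ± 2.20) and Foxred1 for complex I (4.54 ± 1.83). The runners-up were Surf1 for complex IV (10.3 ± 0.832), Uqcc1 for complex III (4.04 ± 0.322), Ndufaf3 for complex I (3.94 ± 0.474), Tmem242 for complex V (1.99 ± 0.327) and Sdhaf3 for complex II (0.217 ± 0.0709). In the second quantification Surf1 (22.1 TPM) stood above Cox17 (15.1), Acad9 (13.5) above Foxred1 (6.71) and Tmem70 (7.65) above Atpaf1 (7.43). The 16 transcriptional regulators had a median of 5.97 ± 1.17 TPM and 13 of them were detected, led by Creb1 (57.9 ± 32.0) and Esrra, the orphan receptor ERR-alpha (16.3 ± 2.72).

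The subunits that mitochondrial DNA encodes for the same complexes were also read in the chromatin fraction. Their 13 mRNAs had a median of 23.8 ± 3.44 TPM, and 9 were detected. mt-Co1, the catalytic subunit of complex IV, stood at 188 ± 42.0 TPM and mt-Atp8 of complex V at 119 ± 25.3. Both were above every nuclear member. mt-Co2 and mt-Nd4l were listed at 0 in the gene tables and stood at 36.7 and 28.3 TPM in the second quantification. How much mitochondrial RNA accompanied the chromatin was not tested.

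Much of the members' signal lay in transcripts that the annotation does not class as protein-coding. Among the 48 detected members, the median share of a gene's TPM in protein-coding transcripts was 37.5%, beside 59.6% for detected protein-coding genes. The median share in retained-intron transcripts, models that contain intron sequence of other transcripts of the gene, was 53.1% for the members and 20.96% for detected protein-coding genes. Protein-coding transcripts held under 50% of the TPM of 31 of 48 detected members (64.6%), beside 39.1% of detected protein-coding genes. Retained-intron transcripts held over 50% for 26 of 48 (54.2%), beside 24.1%.

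A share can only be given to a transcript that is annotated. A retained-intron transcript is annotated for 34 of the 48 detected members and for 63.9% of detected protein-coding genes. Among genes with one, the median retained-intron share was 60.7% for the members, 41.5% for protein-coding genes and 61.5% for the 63 such ribosomal protein genes. Over 50% in retained-intron transcripts was met by 26 of these 34 members (76.5%), beside 37.7% of such protein-coding genes. The ribosomal protein genes thus had a share close to that of the members. Shares of read counts rather than TPM, among genes with one, gave a median of 65.4% for the members and 24.96% for protein-coding genes. For such ribosomal protein genes it was 61.4%. Over all detected genes, with or without one, the medians were 48.8% for the members, 7.64% for protein-coding genes and 50.7% for ribosomal protein genes.

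**Figure D3:**
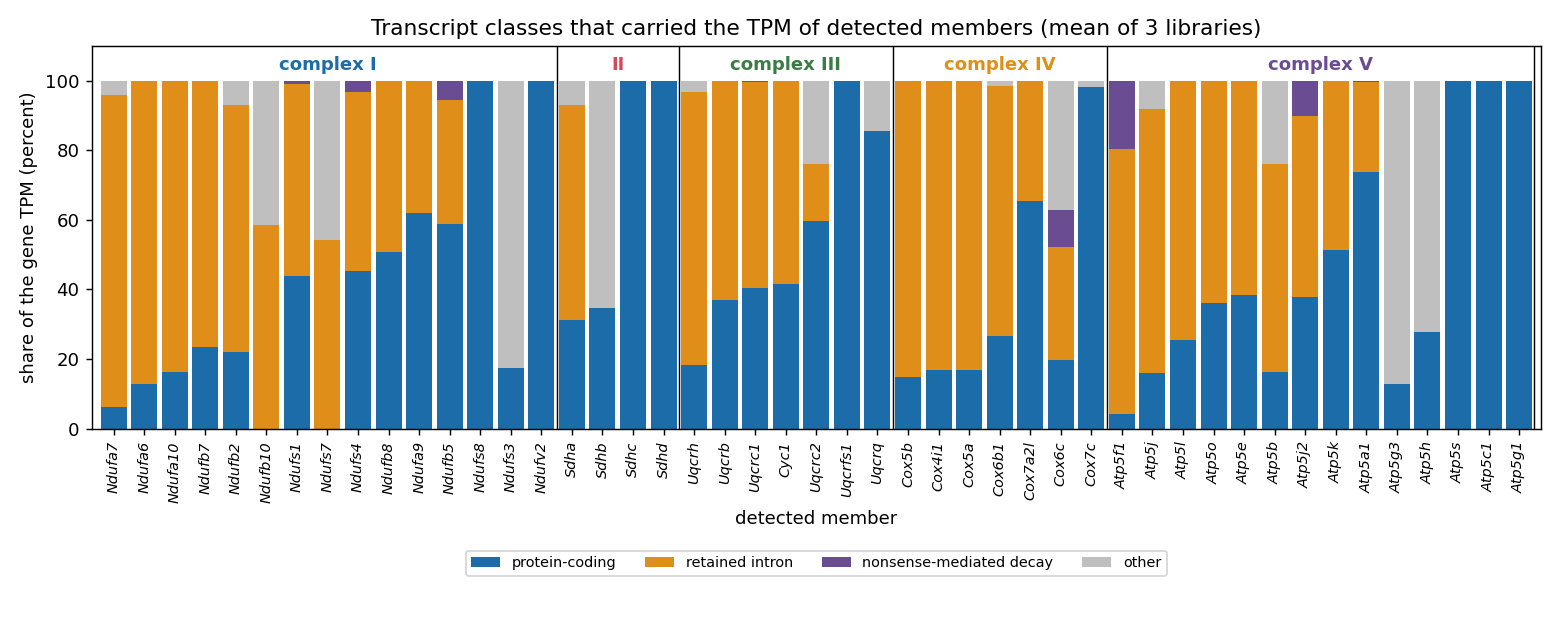
Share of the gene TPM (percent, mean of 3 libraries) carried by protein-coding, retained-intron, nonsense-mediated decay and other transcripts for 47 of the 48 detected members, by complex. Retained-intron transcripts hold over 50% of the bar for most members with such a transcript, and 8 members are wholly protein-coding.

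The classes differed from subunit to subunit. Retained-intron transcripts held over 50% of the TPM of 10 of 16 detected members of complex I, 1 of 4 of complex II, 4 of 7 of complex III, 4 of 7 of complex IV and 7 of 14 of complex V. The highest shares were those of Ndufa7 (89.96%), Ndufa6 (87.2%), Cox5b (85.1%), Ndufa10 (83.8%), Cox4i1 (83.1%) and Cox5a (83.0%), and the highest in complex III was that of Uqcrh (78.5%). By contrast, 8 of the 48 detected members were given to protein-coding transcripts alone (Ndufs8, Ndufv2, Sdhc, Sdhd, Uqcrfs1, Atp5c1, Atp5g1 and Atp5s). None of these 8 has a retained-intron transcript in the annotation. The share of detected protein-coding genes given to protein-coding transcripts alone was not counted. The members with the lowest coding share were Ndufb10 and Ndufs7 (both 0%), Atp5f1 (4.17%), Ndufa7 (6.07%) and Atp5g3 (12.7%, the rest in transcripts classed as processed, without a coding frame).

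Ranking the members by the TPM of their protein-coding transcripts alone changed the order. Cox7c came first at 20.0 ± 5.08 TPM and Atp5a1 second at 10.1 ± 0.375, while Atp5b, first by gene level, came at place 3 with 6.87 ± 0.526. The main coding transcript of Atp5b stood at 6.27, 7.09 and 7.25 TPM. Its SD was smaller than that of 6 of the 7 other transcripts of the gene with the most TPM. Atp5f1, for subunit b of the stator, moved from place 15 to place 64, with 0.293 ± 0.0850 of its 7.05 TPM in protein-coding transcripts. Cox7c itself has 2 short protein-coding models of 540 and 709 bases.

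The introns themselves can be shown for the members whose retained-intron transcripts keep a whole intron between coding exons. Of 97 retained-intron transcripts of members whose sequence was read, 19 contained at least 1 whole intron of the member's main coding transcript with 30 bases of exon on both sides. In all 19 that intron lay between coding exons, began with GT and ended with AG, the usual splice site letters. The main coding transcript is the coding model with the most TPM, and the count of 19 may depend on this choice. For Uqcrc1 that model has 370 bases, beside 1653 for another, and no retained-intron transcript kept a whole intron of it. The lines below take, of these 19, the transcript with the most expected counts in each of complexes III, IV and V, and 1 of Atp5b. They give the 60 bases across each border on GRCm38 from the GENCODE M21 transcript, 5′ to 3′. They are shown because these transcripts hold sequence that the main coding transcript lacks. Capitals mark intron bases and lower case marks exon bases.
Cyc1 start of the intron, chr15:76343663-76343722, plus strand: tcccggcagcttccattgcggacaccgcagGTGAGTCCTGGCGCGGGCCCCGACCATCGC
Cyc1 end of the intron, chr15:76344272-76344331, plus strand: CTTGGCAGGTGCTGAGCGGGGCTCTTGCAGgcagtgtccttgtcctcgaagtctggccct
Cox6c start of the intron, chr15:35937125-35937184, minus strand: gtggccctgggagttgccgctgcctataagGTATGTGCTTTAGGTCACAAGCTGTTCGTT
Cox6c end of the intron, chr15:35935384-35935443, minus strand: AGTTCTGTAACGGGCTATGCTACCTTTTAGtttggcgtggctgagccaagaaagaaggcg
Atp5l start of the intron, chr9:44914621-44914680, minus strand: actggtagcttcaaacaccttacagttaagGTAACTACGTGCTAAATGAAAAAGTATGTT
Atp5l end of the intron, chr9:44913437-44913496, minus strand: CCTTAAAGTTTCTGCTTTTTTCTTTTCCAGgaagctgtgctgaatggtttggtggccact
Atp5b start of the intron, chr10:128084442-128084501, plus strand: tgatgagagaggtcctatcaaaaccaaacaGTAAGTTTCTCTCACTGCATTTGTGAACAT
Atp5b end of the intron, chr10:128085061-128085120, plus strand: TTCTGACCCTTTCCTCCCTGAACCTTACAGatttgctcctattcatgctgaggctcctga

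The intron of Atp5l, which encodes subunit g of complex V, is 1184 bases long, and the transcript that keeps it is 6310 bases long. It held 458.7, 596.8 and 503.8 expected counts in replicates 1, 2 and 3, of the 476.4, 609.5 and 520 of the gene, which is nearly all of them in each library. In TPM it stood at 4.78 ± 0.935 of 7.48 ± 1.91, because TPM divides by length. Atp5l has 9 near-identical copies, which together held a mean of 5.70 counts.

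The Cox6c transcript keeps 2 whole introns, 1 of which, of 1741 bases, is shown, and held 141, 151 and 140.4 of 161, 179 and 156 counts. The Atp5b transcript, which keeps an intron of 619 bases, held 93.9, 148.8 and 104 of 498, 755 and 585 counts. The Cyc1 transcript (intron of 609 bases) held 11.3, 33.6 and 27.0 of 25, 63 and 45. These counts are the quantification's division of reads among transcripts that share exons. Exons of genes on the other strand overlap Atp5l (Gm30934) and Cox6c (Vps13b), and since the strand setting is not given in the sources used here, reads from either strand cannot be told apart.

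The retained-intron share also differed between libraries. Its median over detected members was 64.5% in replicate 1, 40.4% in replicate 2 and 48.7% in replicate 3, and the medians of detected protein-coding genes were 23.2%, 18.9% and 17.9%. Of the 34 detected members with such a transcript, 23 had their highest share in replicate 1 (67.6%, beside 56.8% of such protein-coding genes), 4 in replicate 2 and 7 in replicate 3. Replicate 1 was the shallowest library and was made from the most RNA, and the part of depth and input in this difference was not tested.

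The second quantification gave higher levels. The median member stood at 4.43 ± 1.32 TPM in it, and 82 of 86 members were higher than in the gene tables. The rise was general. The median of all protein-coding genes was 0.210 TPM in the gene tables and 1.19 in the second quantification. The median ratio (0.1 TPM added to both) was 1.98 over detected members and 1.60 over detected protein-coding genes. The share of all protein-coding genes that were higher was not counted. More than 1.5-fold higher (0.1 TPM added to both) were 36 of 48 detected members (75.0%), beside 56.9% of detected protein-coding genes. Detection in it was met by 68 of 86 members (79.1%), beside 61.0% of protein-coding genes. The order of the members was largely kept (Spearman rho 0.869 across the 86 members, which share libraries and annotation).

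**Figure D4:**
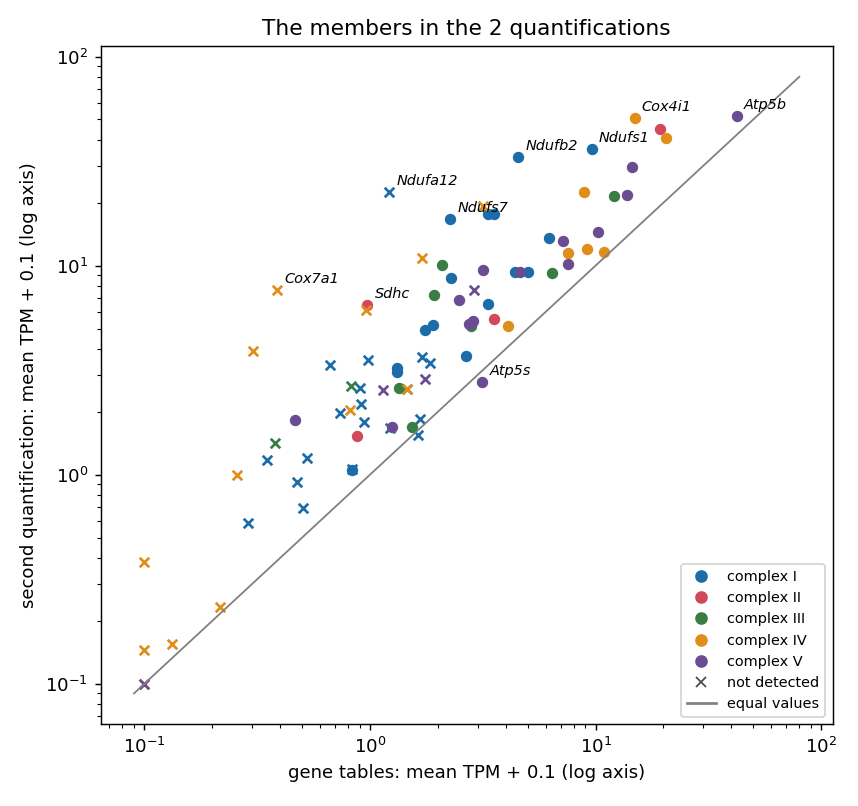
Mean TPM + 0.1 of each member in the gene tables (x axis, log) and in the second quantification (y axis, log), coloured by complex, with crosses for members not detected. Most points lie above the line of equal values, and Ndufa12 and Cox7a1 lie farthest from it among the labelled genes.

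The 5 largest ratios among detected members belonged to complexes I and II. Ndufs7 stood at 2.16 TPM in the gene tables and 16.6 in the second quantification (7.38-fold), Ndufb2 at 4.45 and 32.9 (7.27-fold), Sdhc at 0.873 and 6.40 (6.67-fold), Ndufs8 at 3.23 and 17.6 (5.33-fold) and Ndufa7 at 3.45 and 17.5 (4.96-fold). A single transcript carried from 49.2% (Ndufs8) to 94.0% (Ndufb2) of the difference in these 5. Over the 47 detected members higher in the second quantification, the transcript with the widest difference was protein-coding for 24 and retained-intron for 14. It was of another class for the rest, and other genes were not counted. A retained-intron transcript of Ndufb2 of 1110 bases stood at 1.23 TPM in the gene tables' companion transcript tables and at 28.01 in the second quantification. A retained-intron transcript of Ndufs7 of 435 bases stood at 0.333 and 12.8 TPM, and a protein-coding model of Sdhc of 298 bases at 0 and 3.84.

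At the other end, Atp5s was lower in the second quantification (3.05 and 2.68 TPM, 0.881-fold), the only detected member that was. Cox5a (10.8 and 11.5 TPM, 1.07-fold), Uqcrfs1 (1.43 and 1.60, 1.11-fold), Atp5b (42.1 and 51.8, 1.23-fold) and Cox7a2l (3.99 and 5.05, 1.26-fold) differed least. Cox4i1 stood at 14.8 and 50.7 TPM, close to Atp5b in the second quantification, and 1 of its retained-intron transcripts, of 608 bases, at 4.93 and 31.1. Exons of the opposite-strand gene Emc8 overlap Cox4i1. Cox4i1, Ndufb2 and Ndufs1, with the widest TPM differences between the quantifications, each have such an overlap, while Sdha and Cox7c, next in order, have none. Over all detected members, those with such an overlap (16) and those without (32) had the same median ratio of the quantifications, 1.98. More than 1.5-fold higher were 13 of the 16 and 23 of the 32. The part of overlap in the differences was not tested.

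The median coding share over all detected members hardly depended on the quantification, and the median retained-intron share did. By complex, the median coding share differed more. It was 31.2% in the gene tables and 32.6% in the second quantification for complex I, and 67.3% and 71.5% for II. For III it was 41.6% and 53.7%, for IV 19.8% and 31.0%, and for V 37.0% and 49.1%. In the second quantification the median coding share of the detected members was 38.1% (50.6% for detected protein-coding genes) and the median retained-intron share 34.7% (21.7%). Retained-intron transcripts then held over 50% of the TPM of 17 of the 48 (35.4%), beside 24.9% of detected protein-coding genes. Among genes with such a transcript annotated, the median retained-intron share was 50.6% for the members and 42.4% for protein-coding genes. Coding shares of single members in the 2 quantifications had a Spearman rho of 0.883 across the 48 members.

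Between libraries the members as a group stayed close to the other genes. The shift of a gene is its log2 of normalised CPM (counts scaled to library size) minus its mean over the 3 libraries, and for the 54 members that averaged 10 or more counts its median was -0.06, 0.11 and -0.02 in replicates 1, 2 and 3, beside -0.07, 0.05 and 0.04 for 10322 protein-coding genes. The scale is TMM (trimmed mean of M-values), and DESeq2 size factors and the second quantification gave the same signs for the members. With library totals these medians were 0.16, -0.01 and -0.12 for the members and 0.14, -0.06 and -0.06 for the protein-coding genes, so a list is read against the other genes. A range of at least 2-fold between libraries was met by 11 of 54 members (20.4%), beside 18.5%. The highest value was in replicate 1 for 19 of 54 (35.2%), beside 32.8%, and the lowest in replicate 3 for 19 of 54 (35.2%), beside 22.7%.

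**Figure D5:**
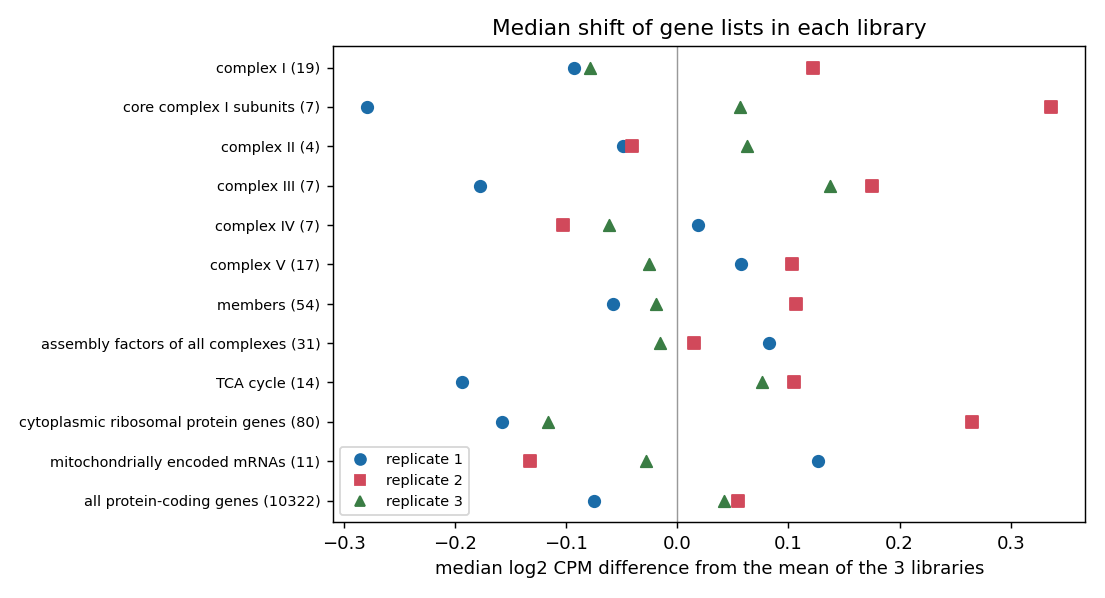
Median shift of each list in each library, as log2 CPM minus the mean of the 3 libraries, with the number of genes of at least 10 mean counts in brackets. The members lie between -0.06 and 0.11, and the 7 core genes of complex I spread from -0.28 to 0.34.

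Among the 5 complexes and the core genes of complex I, the core genes spread most. Their median shift was -0.28, 0.34 and 0.06 in replicates 1, 2 and 3, and 5 of the 7 were highest in replicate 2 on this scale, as were 23 of the 54 members (42.6%) and 38.5% of protein-coding genes. The ribosomal protein genes had -0.16, 0.27 and -0.12, and 63 of the 80 with at least 10 mean counts were highest in replicate 2. The macrophage markers had -0.38, 0.22 and 0.02, and the part of the cells' make-up in these shifts was not tested. Complex III had -0.18, 0.17 and 0.14, while complexes II, IV and V stayed between -0.10 and 0.10.

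Few detected members stood apart by their own spread. After Ndufs8, the widest ranges in normalised counts belonged to Atp5s (2.42-fold, 21, 69 and 46 counts), Uqcrc2 (2.22-fold, 38, 60.9 and 22.7 counts) and Atp5c1 (2.04-fold, 49, 60 and 27 counts). Atp5s was lowest in replicate 1, Uqcrc2 and Atp5c1 in replicate 3 and Ndufs8 in replicate 2, so these 4 shared no pattern. The median biological coefficient of variation, a measure of spread beyond counting noise, was 0.264 for the members and 0.251 for the protein-coding genes.

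What the promoters of the members share was read from RefSeq windows on GRCm38.p6, from 250 bases before to 50 after the start. A window was found for 68 of the 85 symbols, 73 windows in all. Motifs were searched on both strands as exact letters. The letters GCATGCGC, a site form of NRF1, the factor named for its control of respiratory genes, were in 13.7% of member windows, in 5.43% of 9909 windows of detected protein-coding genes and in 2.71% of all 32851 windows. AAGATGGC (YY1) was in 13.7%, 4.68% and 2.75%, and AAGGTCA (estrogen-related receptors) in 11.0%, 3.17% and 4.72%.

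CCGGAAG, the core site of ETS factors such as GABP, was in 21.9% of member windows, 18.7% of windows of detected genes and 8.86% of all. GGGCGG (SP1) was in 39.7%, 62.8% and 35.7%, and TATAAA (the TATA box) in 11.0%, 7.09% and 13.6%. The 10 members with GCATGCGC were spread over the 5 complexes: Ndufa6, Ndufa8 and Ndufa11, Sdhb, Uqcrc1 and Uqcr11, Cox6a1, and Atp5l, Atp5k and Atp5g2. None of these 10 also had AAGATGGC. As only 10 of the 73 member windows held AAGATGGC, no conclusion is drawn from this. How often the 2 occur together in other windows was not counted. Members without a matched window included Atp5a1, Atp5mpl, Cox4i1, Cox4i2, Cox6a2, Cox6c, Cox8c, Cyc1, Ndufa2, Ndufa4l2, Ndufb9, Ndufs1, Sdhc, Uqcrb, Uqcrc2 and Uqcrq. The window of Atp5b, the most abundant member, had 2 matches to GGGCGG and none to the other letters searched, and the windows of Cox7c and Sdha had no match to any of the 6.

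The 250 bases before the start are shown for 2 members with the NRF1 letters, Sdhb as the complex II gene with them, and Atp5l because its upstream bases also hold the ETS letters. Capitals mark matches to GCATGCGC, CCGGAAG and AAGATGGC on either strand, and a match describes letters, not binding. The Sdhb window holds 1 match to CCGGAAG and the Atp5l window 1 more in the bases after the start, which are not shown.
Sdhb, chr4:140961021-140961270, plus strand: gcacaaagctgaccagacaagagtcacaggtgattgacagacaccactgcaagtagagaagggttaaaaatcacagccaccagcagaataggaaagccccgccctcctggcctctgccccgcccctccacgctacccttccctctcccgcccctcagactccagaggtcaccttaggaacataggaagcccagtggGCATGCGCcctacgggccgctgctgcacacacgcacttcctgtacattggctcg
Atp5l, chr9:44920743-44920992, minus strand: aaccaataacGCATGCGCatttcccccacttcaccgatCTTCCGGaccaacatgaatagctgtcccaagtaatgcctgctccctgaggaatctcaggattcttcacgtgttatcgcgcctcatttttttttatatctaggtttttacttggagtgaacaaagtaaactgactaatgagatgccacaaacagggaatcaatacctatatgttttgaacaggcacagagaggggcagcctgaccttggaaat

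Levels of detected members followed neither gene length nor exon number. Across the 48 members, which share libraries and quantification, Spearman rho of TPM was 0.058 with gene span and 0.151 with the number of exons of the main coding transcript. With the coding share rho was -0.431. The gene TPM is the denominator of this share, so TPM in other transcripts raises the level and lowers the share. A negative rho can arise from this alone, so no conclusion is drawn from it. Whether rho differs from that of other genes was not tested.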

How the data were processed

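RNA of the chromatin fraction of lipid A-stimulated macrophages was read in 3 libraries of 1 group. The gene and transcript tables held expected counts, TPM and FPKM computed by the authors before deposit, and another transcript table deposited per library held estimated counts and TPM (the second quantification). Files were made on mm10 with GENCODE M21, as the deposited notes state; the aligner, quantification tools, versions and strand setting are not given in the sources used here. Rows that name no gene, mostly phiX174 (1.28%, 0.427% and 0.383% of expected counts), were left out. Retained-intron sequence of members on 1 chromosome was not read.

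Members were found by symbol. Members, gene lists, alternatives and the naming rule were all chosen with earlier results of these data known. That rule takes the 4 highest and 2 lowest members above 0 TPM of complexes I, III, IV and V, complex II whole, the isoforms of other tissues, the core genes of complex I, the 5 detected members with the widest range, with the most different quantifications in each direction and with the lowest coding share, and the 2 highest of each other list. The values of 1 member are not reported here, though it is part of all counts and medians. Further genes named (for example Ndufa12, Ndufa6, Cox7a2, Cox6b1, Cox5b, Cyc1, Actn2, Atp5l, Atp5g2 and the mitochondrial mRNAs) were chosen after their values were seen. The listed symbols Coa1 and Atp5if1 matched no gene by name.

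Expected counts were rounded, and edgeR 4.0.16 in R 4.3.3 computed log2 CPM on the TMM scale (0.5 added to each count) and the dispersion of an intercept-only model, tested on simulated data first. DESeq2 1.42.0 size factors, library totals, FPKM, other count limits, the second quantification and leaving out each library were the alternatives. Near-identical copies were sought with BLAST 2.17.0+, and other values were computed with Python 3.11.15. No p-value was computed, since 1 group allows no comparison. Depth limits low members: a gene at 0 counts allows up to 3 in a library, counting error only.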

Additional observations from a re-analysis of the deposited data

How the results depend on the processing

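No paired analysis was possible because the libraries form 1 group. The level of the members depends on the scale. The median member, 1.62 TPM in the gene tables, was 4.43 in the second quantification, 3.41 over detected members alone, 2.06 in FPKM and 8.31 in TPM over protein-coding genes alone. For complexes I, II, III, IV and V these values were 3.21, 5.94, 5.04, 5.38 and 7.15 in the second quantification, 1.71, 2.79, 2.29, 1.22 and 3.88 in FPKM, and 6.93, 11.1, 9.29, 4.85 and 15.4 over protein-coding genes alone. Over detected members alone, complexes I, III, IV and V had 2.93, 2.31, 9.66 and 4.11, and complex II was as before. Complex IV thus was lowest in 3 of the 5 scales, but had the third rank in the second quantification and the first over detected members. Leaving out 1 library gave 1.53 to 1.69 for the members. A mean of 3 libraries can move only within their SD when 1 is left out, so this range is no sign of stability.

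The count of detected members was 60 with 5 counts, 35 with 20 counts and 68 in the second quantification, and 48 to 53 without 1 library. The ratio to ribosomal protein genes was 0.248 in the second quantification and 0.286 over detected genes alone. The shifts became 0.16, -0.010 and -0.12 in replicates 1, 2 and 3 under library totals, which moved all protein-coding genes to 0.14, -0.06 and -0.06, and stayed within 1 SD under the other alternatives. The coding share was 48.4% over all members above 0 TPM. Alternatives for the retained-intron share were added after seeing the data: its median was 34.7% and the count over 50% was 17 in the second quantification, and they were 45.3% to 59.0% and 22 to 27 without 1 library. The causes were not tested. Of 46 named members, 44 stood higher in the second quantification and 39 differed there by more than 1 SD. Some of the 46 were named for the ratio of the quantifications itself, 5 in each direction. These counts therefore describe the named members only, and the same shares of all protein-coding genes were not counted. The median of all protein-coding genes was higher in the second quantification too (1.19 beside 0.210 TPM).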
